A study of Symphysodon aequifasciata with 2 samples.

Results

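The genes of the glucocorticoid stress axis were described in the brain of 1 female and 1 male discus fish (Symphysodon aequifasciatus), an ornamental cichlid. Features were taken whose gene symbol is fkbp5, ddit4, crh, nr3c1, nr3c2, sgk1 or hsd11b2, in any case and with or without a final a or b. Features whose protein match names a glucocorticoid or mineralocorticoid receptor, corticoliberin or a corticotropin-releasing factor protein were added. This gave 17 of the 40209 features in the deposited table, 11 by symbol and 10 by protein match, with 4 found by both. They carry 9 gene symbols, and 1 feature carries none. The rule uses names alone, but the set was chosen by female and male TPM values already known, above all those of fkbp5, ddit4 and crh, so the differences below are descriptions.

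Both fish were 1 year old, came from the same breeding laboratory, and were killed in an anaesthetic bath of MS-222 at 100 mg/L, per the labels. Poly(A) RNA of each brain gave 1 library, so the sexes could not be tested against each other, and no p-values appear. A difference by sex and one between these individuals or their sample preparation cannot be told apart. The sex of a library is that of its gender label, which no gene measured here checks, and its title begins with T for the library labelled female and O for the one labelled male, letters that the labels do not explain. Read as initials of testis and ovary, they would go against the gender labels, and every direction given here between the sexes would then turn round. The gender labels were followed, and whether the values could settle this doubt was not examined. Values were taken as TPM, reads per length of a feature scaled to a fixed total per library. This puts genes and libraries on one scale, but a few abundant features can lower all others in a library. A feature is a transcript cluster whose symbol and protein name come from other species. In a whole brain, fewer cells of a type and less RNA per cell cannot be told apart.

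In fish, the hypothalamic peptide corticotropin-releasing factor drives the pituitary to release corticotropin, which drives the interrenal cells of the head kidney to make cortisol. Cortisol acts through the glucocorticoid and mineralocorticoid receptors, transcription factors that a complex of chaperones holds ready in the cytoplasm. The immunophilin FKBP5 is a part of that complex that lowers the receptor's affinity for the hormone, and in mammals its own gene is switched on by the receptor, which makes it a feedback loop and a widely used readout of glucocorticoid action.

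Of the 17 features, 1 lay at least 2-fold lower in the female brain, the main fkbp5 feature, and 0 lay at least 2-fold higher. Of all listed features, 10.1% lay at least 2-fold lower and 5.02% at least 2-fold higher in the female brain. Most of these were short, and among features of at least 1000 bases the shares were 1.01% and 0.373%. At 1.5-fold, 3 of the 17 were lower and 1 was higher in the female brain, and 32.4% of all features passed that size in either direction. The 1 higher was the fkbp5 feature of 376 bases, at 5.85 TPM in the male library. No feature whose higher value is under 6.01 TPM is listed, so this feature is listed only through its female value. The hormone gene crh, the longer features of both receptors and the cortisol-inactivating enzyme gene hsd11b2 differed little between the libraries. Both features of crhbp, which encodes a protein that binds the hormone, were lower in the female library. The genes ddit4 and sgk1 had 2 features each, which did not move together.

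**Figure D1:**
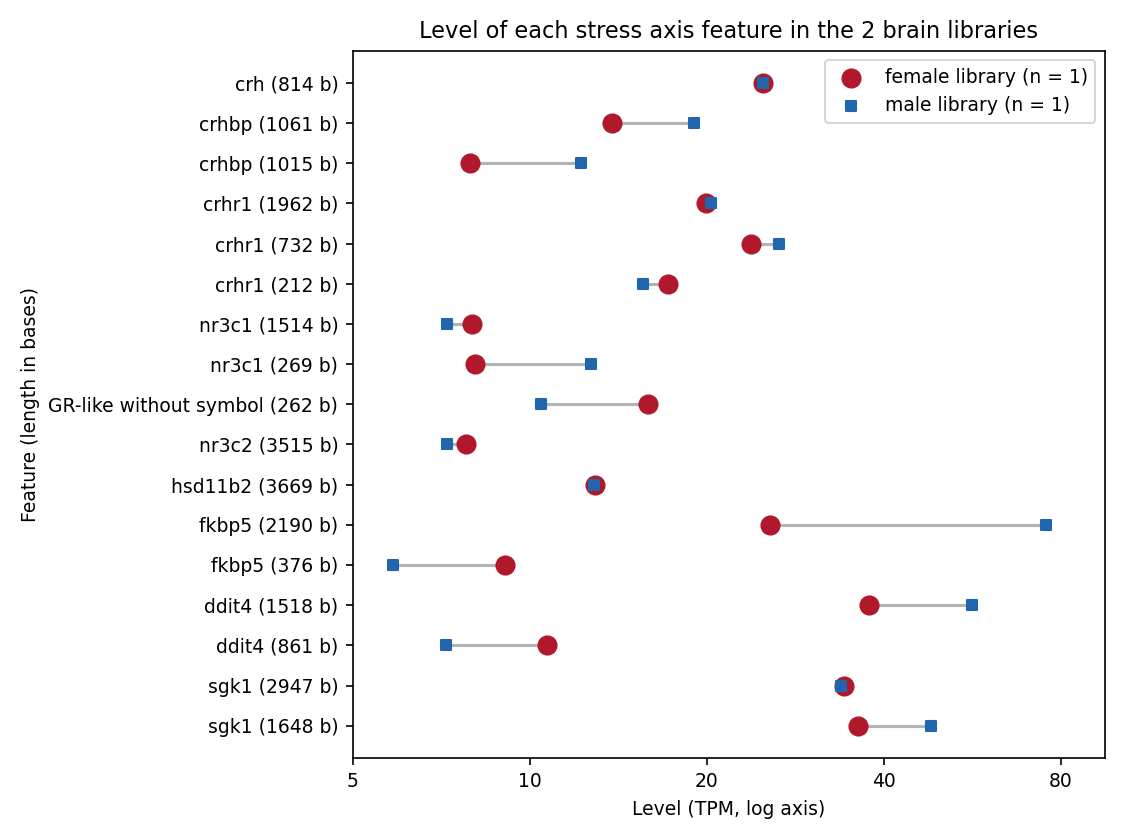
Level of each of the 17 features in TPM on a log axis, with circles for the female library and squares for the male library (n = 1 each) and a line joining the 2 values of a feature. The main fkbp5 feature has the widest gap, 25.6 TPM in the female and 75.4 TPM in the male library, while crh and hsd11b2 have overlapping symbols. GR stands for glucocorticoid receptor.

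In the female library the levels per length ran from 37.7 TPM (ddit4 of 1518 bases) through 36.2 and 34.3 TPM (sgk1), 25.6 TPM (fkbp5) and 24.9 TPM (crh) down to 7.79 TPM (nr3c2). In the male library they ran from 75.4 TPM (fkbp5) through 56.5 TPM (ddit4), 48.0 and 33.8 TPM (sgk1), 26.5 TPM (crhr1 of 732 bases) and 24.9 TPM (crh) down to 5.85 TPM (the short fkbp5 feature). With 1 library per sex the spread between fish is unknown, so whether neighbours in either order differ beyond it cannot be told.

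The ligand gene crh, which encodes corticotropin-releasing factor, measured 24.9 TPM in the female library and 24.9 TPM in the male library, a fold of 1.0. Counting error alone gave this fold a 95% interval of 0.884 to 1.13. The interval is exact (Clopper-Pearson) and does not cover the spread between fish. Read numbers were recovered from the values at lengths of up to 420 bases, which 4 of the 17 features have. For longer features such as crh, reads per TPM were extended from such lengths by a straight line. This single feature of 814 bases lay above 86.4% of all features in the female library.

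The binding protein gene crhbp, whose product holds the peptide away from its receptors, had 2 features of similar length. The feature of 1061 bases measured 13.8 TPM in the female and 19.0 TPM in the male library, a log2 ratio of −0.45. The feature of 1015 bases measured 7.9 TPM in the female and 12.2 TPM in the male library, a log2 ratio of −0.60. Both were lower in the female library by less than 2-fold, with folds of 0.727 (interval 0.639 to 0.826) and 0.646 (interval 0.544 to 0.767). Their protein match has the same name, and whether they are 2 genes or 2 forms of 1 gene cannot be told from the table. Within a library, crh stood at 1.15 times the sum of the 2 crhbp features in the female brain and at 0.798 times that sum in the male brain, a ratio that does not depend on the scaling of the library.

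The receptor gene crhr1, through which the peptide acts on pituitary and brain cells, was represented by 3 features. At 1962 bases it measured 19.9 TPM in the female and 20.3 TPM in the male library, and at 732 bases 23.8 TPM in the female and 26.5 TPM in the male library. The shortest, of 212 bases, measured 17.2 TPM in the female and 15.6 TPM in the male library on 15 reads each. The 3 counting intervals all held 1. The related receptor gene crhr2, which prefers urocortins, lies outside the selection because its protein match is unnamed, and measured 10.4 TPM in the female and 10.4 TPM in the male library.

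The glucocorticoid receptor gene nr3c1 had a feature of 1514 bases at 7.96 TPM in the female and 7.24 TPM in the male library. A second feature with this symbol, of 269 bases, measured 8.05 TPM in the female and 12.7 TPM in the male library, on 12 and 21 reads. The features pointed in opposite directions, with log2 ratios of 0.13 and −0.63, and both counting intervals held 1. One more feature, of 262 bases and without a symbol, was matched to a glucocorticoid receptor-like protein at 15.9 TPM in the female and 10.4 TPM in the male library. Its orthology entry in the table reads androgen receptor, so its identity is uncertain, and its interval of 0.764 to 3.10 also held 1. Bony fish commonly carry 2 glucocorticoid receptor genes, and the table does not tell which feature belongs to which.

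The mineralocorticoid receptor gene nr3c2, whose product also binds cortisol in fish, measured 7.79 TPM in the female and 7.22 TPM in the male library over a feature of 3515 bases. Its fold of 1.08 had an interval of 0.985 to 1.18. The 2 receptor genes stood at nearly the same level within each library, with the longer nr3c1 feature at 1.02 times nr3c2 in the female and 1.00 times in the male brain. Both lay near the lower limit of the table, which lists no feature whose higher value is under 6.01 TPM. The enzyme gene hsd11b2, whose product turns cortisol into inactive cortisone, measured 12.9 TPM in the female and 12.9 TPM in the male library over 3669 bases, and the interval of its fold ran from 0.937 to 1.08.

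The main fkbp5 feature, of 2190 bases, measured 25.6 TPM in the female and 75.4 TPM in the male library. This was 2.95-fold lower in the female library, with a counting interval of 2.79 to 3.11, and a log2 ratio of −1.54. It was the most abundant of the 17 features in the male library, where the next, ddit4, measured 56.5 TPM, but not in the female library, where ddit4 and both sgk1 features were higher. Among the 10726 features of at least 1000 bases it ranked 28 in order of ratio towards the male library. Of the 1944 such features within 2-fold of its mean level of 50.5 TPM, 3 including fkbp5 itself had a ratio as low or lower. Of these 1944, 15 lay at least 2-fold below and 4 at least 2-fold above their male level in the female library. Since fkbp5 was chosen by its values, its rank and these counts describe the difference and are not support for it.

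A second feature with the symbol fkbp5, of 376 bases, measured 9.07 TPM in the female and 5.85 TPM in the male library, on 39 and 28 reads. Its protein match is named inactive isomerase FKBP6, so it may not belong to fkbp5, and its interval of 0.930 to 2.62 held 1. With a male value under 6.01 TPM it is listed only through its female value, so its direction is not support for a difference. Summing both features gave 34.7 TPM in the female and 81.3 TPM in the male library, a log2 ratio of −1.22, which kept fkbp5 past 2-fold.

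Ratios within a library set fkbp5 against its partners without regard to library scaling. The closely related co-chaperone FKBP4, which takes the place of FKBP5 in the receptor complex and favours hormone binding, has a gene that measured 15.7 TPM in the female and 17.8 TPM in the male library. The main fkbp5 feature therefore stood at 1.64 times fkbp4 in the female brain and at 4.24 times in the male brain. Against hsp90ab1, which encodes the chaperone that carries the receptor, it stood at 0.101 times in the female and 0.251 times in the male brain. Against the longer nr3c1 feature it stood at 3.22 times in the female and 10.4 times in the male brain. On each of these scales fkbp5 was between 2.49-fold and 3.24-fold lower in the female brain. The partners fkbp4, hsp90ab1 and longer nr3c1 differed little between the libraries, with log2 ratios of −0.18, −0.24 and 0.13. The ratios therefore largely repeat the fkbp5 difference, for which the gene was chosen, and are not separate support for it.

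**Figure D2:**
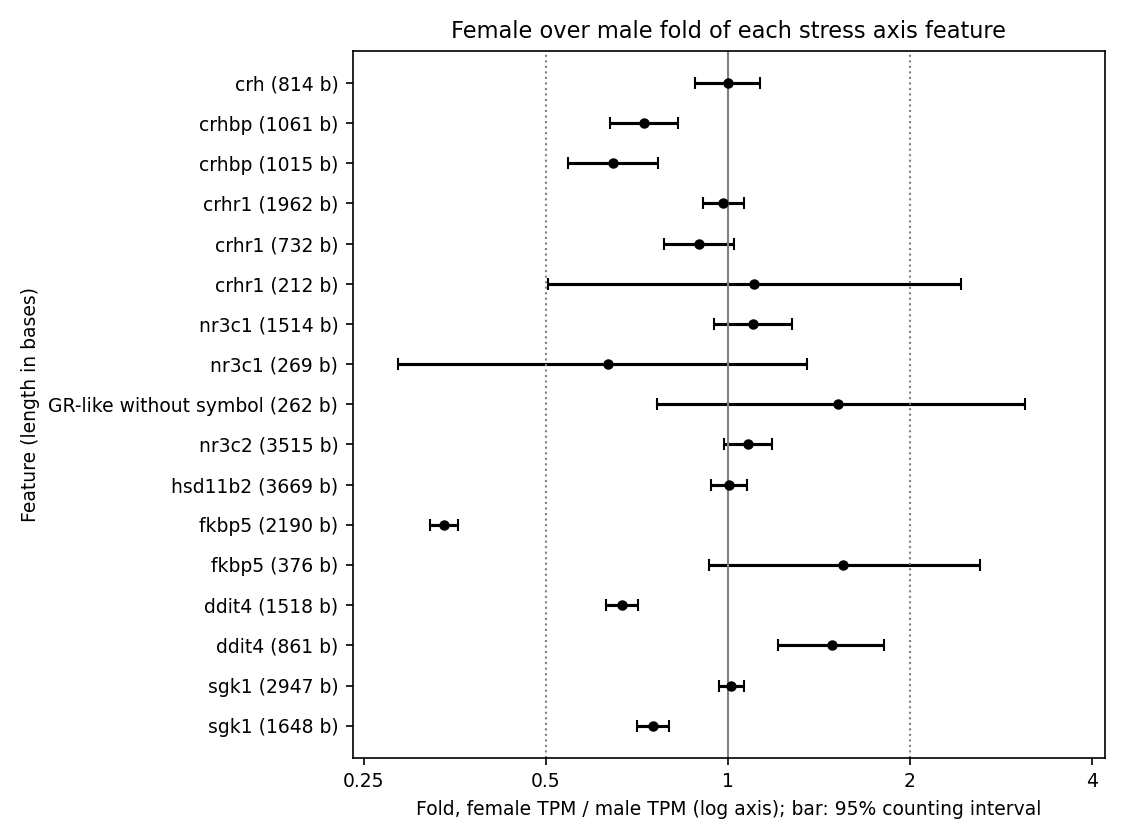
Fold of female over male TPM for each of the 17 features on a log axis, with bars for the 95% interval of counting error alone and dotted lines at 2-fold. The fkbp5 feature of 2190 bases lies at 0.340 and is the one beyond a dotted line, while the bars of crh, crhr1, nr3c1, nr3c2 and hsd11b2 cross 1.

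The gene ddit4, also called REDD1, encodes an inhibitor of the growth regulator mTORC1 and is induced by glucocorticoids and other stresses in mammals. Its longer feature, of 1518 bases, measured 37.7 TPM in the female and 56.5 TPM in the male library, a log2 ratio of −0.58. The other, of 861 bases, measured 10.7 TPM in the female and 7.2 TPM in the male library, a log2 ratio of 0.54. The features went in opposite directions, neither by 2-fold, with intervals of the fold of 0.628 to 0.709 and of 1.21 to 1.82. The longer feature stood at 3.52 times the shorter in the female brain and at 7.84 times in the male brain. Both carry the same orthology entry and domain annotation but were matched to differently named proteins, and whether they are separate gene copies cannot be told from the table. Summed, ddit4 measured 48.4 TPM in the female and 63.7 TPM in the male library.

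The kinase gene sgk1, named for its induction by serum and glucocorticoids, also had 2 long features. That of 1648 bases measured 36.2 TPM in the female and 48.0 TPM in the male library, a log2 ratio of −0.40 with an interval of the fold of 0.709 to 0.7995. That of 2947 bases measured 34.3 TPM in the female and 33.8 TPM in the male library, with an interval of 0.967 to 1.06. The first stood at 1.06 times the second in the female brain and at 1.42 times in the male brain, and the sum of both was 70.4 TPM in the female and 81.8 TPM in the male library.

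Taken over the 17 features, 9 had a log2 ratio above 0 and 8 below, with a median of 0.00, beside a median of −0.07 over all features. Among the 10 of at least 1000 bases, 4 were above and 6 below 0, with a median of −0.22, beside −0.05 for all features of that length. The summed level was 314 TPM in the female and 396 TPM in the male library, and 288 TPM in the female and 320.3 TPM in the male library without the main fkbp5 feature. Counting intervals left out 1 for 6 of the 17, 5 of them lower and 1 higher in the female library. Such an interval left out 1 for 43.3% of all features and for 61.7% of those of at least 1000 bases, so leaving out 1 is common between these libraries.

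**Figure D3:**
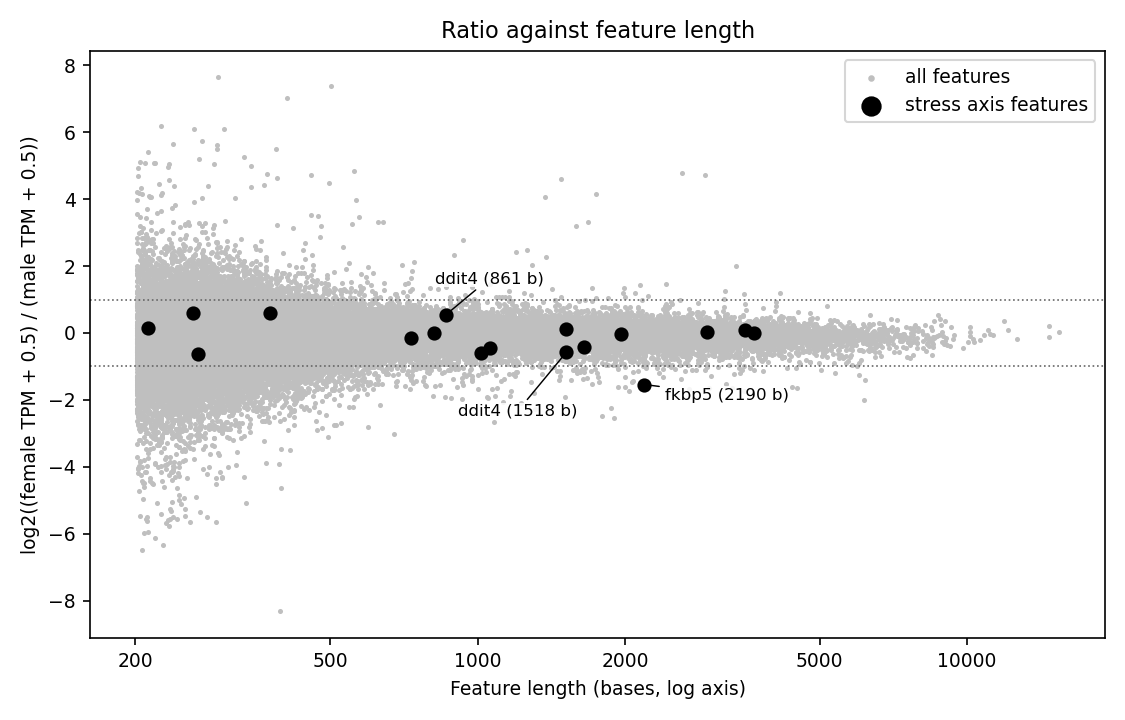
Log2 ratio of female over male, with 0.5 TPM added to each value, against feature length in bases on a log axis, for all 40209 features in grey and the 17 stress axis features in black, with dotted lines at 2-fold. The scatter narrows with length, and at 2190 bases fkbp5 lies below the bulk of features at −1.54 while ddit4 of 1518 and 861 bases lies inside it.

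The wider pathway was described with lists of genes, each represented by its most abundant feature. Of all 40209 features 34115 lay within 2-fold, and of the 10726 of at least 1000 bases 10578 did. Counts of list genes within or past 2-fold stand beside these and are not read as results about a list. Of all listed genes, 43 had more than 1 feature, and for 5 of them (smarca4, crebbp, nfkbia, angptl4 and atf4, singled out after their values were seen) the sum of features went the other way than the feature used. Of 15 genes of the corticotropin-releasing factor family and pituitary axis 8 were measured, 1 of them higher by 2-fold and 1 lower by 2-fold in the female brain. The higher was pomc, the precursor gene of corticotropin, at 22.7 TPM in the female and 4.4 TPM in the male library on 28 and 6 reads. A second pomc feature, of 339 bases, measured 15.5 TPM in the female and 6.05 TPM in the male library, on 48 and 21 reads. The intervals of both left out 1, but whether they belong to separate genes cannot be told here. No feature whose higher value is under 6.01 TPM is listed, so a gene below that level in 1 library is listed only through the other. This holds for the first pomc feature and, below, for features such as those of per1, ncor1 and srd5a1. Their ratios and intervals are therefore not support for a difference. The second pomc feature, at 6.05 TPM in the male library, lay just above that level. The lower was mrap2, whose product assists melanocortin receptors, at 6.25 TPM in the female and 21.9 TPM in the male library over 1169 bases, or 3.51-fold lower in the female. The receptor ligand gene ucn3 (urocortin 3) was the most abundant of this list and measured 28.4 TPM in the female and 36.4 TPM in the male library.

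The chaperone complex of the receptor had 16 of 19 genes measured, of which fkbp5 was at least 2-fold lower and 15 lay within 2-fold. Of the 16, 12 had a ratio below 0, with a median of −0.13. Over all features, 56.2% lay below 0, with a median of −0.07, so the count is not read as a shift of this complex. The heat shock cognate gene hspa8 was the most abundant, at 362 TPM in the female and 381 TPM in the male library, and hsp90ab1 measured 254 TPM in the female and 300.2 TPM in the male library. The largest ratio after fkbp5 was that of ahsa1, an activator of HSP90, at 107 TPM in the female and 76.8 TPM in the male library. The co-chaperone genes stip1, ptges3 and ppid had log2 ratios of −0.23, −0.15 and −0.14.

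The FKBP immunophilins, 9 measured of 15, also had fkbp5 as the one past 2-fold. Their median of −0.04 turned to 0.01 when ratios were centred on the median of long features. The gene fkbp1a, the most abundant, measured 150 TPM in the female and 132 TPM in the male library, with a second feature, of 1746 bases, at 73.8 TPM in the female and 83.1 TPM in the male library. The gene fkbp2 measured 72.7 TPM in the female and 53.0 TPM in the male library.

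Genes known from mammals or fish to respond to glucocorticoids were described next, 21 measured of 33, a list that holds fkbp5, ddit4 and sgk1. Of these, 0 lay at least 2-fold higher and 3 at least 2-fold lower in the female brain, beside 5.02% and 10.1% of all features. Among features of at least 1000 bases, the shares were 0.373% and 1.01%. The list mixes long and short features and was written with values known, so the count of 3 of 21 is not read as an excess or as a lack of one. A ratio below 0 was found for 15 of the 21, beside 56.2% of all features. The 15 include fkbp5, ddit4 and sgk1, whose values were known when the set was chosen. They also include per1, which is listed only through its male value, and the count is not read as a shift of this list. The median was −0.27, and −0.24 over the 18 genes that are not among the 17 features, beside −0.07 over all features. Besides fkbp5, the genes past 2-fold were per1 and tat. Of these genes, fkbp5 and per1 rest on features of at least 1000 bases and tat on a feature of 218 bases. The clock gene per1 measured 5.28 TPM in the female and 18.6 TPM in the male library over 3495 bases, and a second per1 feature, of 1287 bases, 4.87 TPM in the female and 14.4 TPM in the male library. Both per1 features are listed only through their male values, since no feature whose higher value is under 6.01 TPM is listed. The tyrosine aminotransferase gene tat, a classical glucocorticoid target of liver, measured 8.77 TPM in the female and 26.8 TPM in the male library on 8 and 27 reads. Clock genes other than per1 were not part of this list, and the time of day of sampling is not given in the sources used here.

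The features used for the other responsive genes lay within 2-fold. The glutamine synthetase gene glul, the most abundant, measured 307 TPM in the female and 390 TPM in the male library. Another glul feature, of 1953 bases, measured 194 TPM in the female and 184 TPM in the male library. A short glul feature, of 390 bases, measured 11.9 TPM in the female and 0.0 TPM in the male library, on 57 and 0 reads. This short feature is listed only through its female value, so its ratio is not support for a difference. The gene tsc22d3, which encodes the glucocorticoid-induced leucine zipper, measured 61.5 TPM in the female and 72.9 TPM in the male library, a log2 ratio of −0.24. The metabolic regulator gene txnip measured 61.7 TPM in the female and 88.8 TPM in the male library, a log2 ratio of −0.52. Near equal levels were found for nfkbia, an inhibitor of inflammatory signalling that glucocorticoids induce in mammals, at 41.8 TPM in the female and 40.8 TPM in the male library. The cell cycle inhibitor gene cdkn1c was higher in the female library by less than 2-fold, with a log2 ratio of 0.30.

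**Figure D4:**
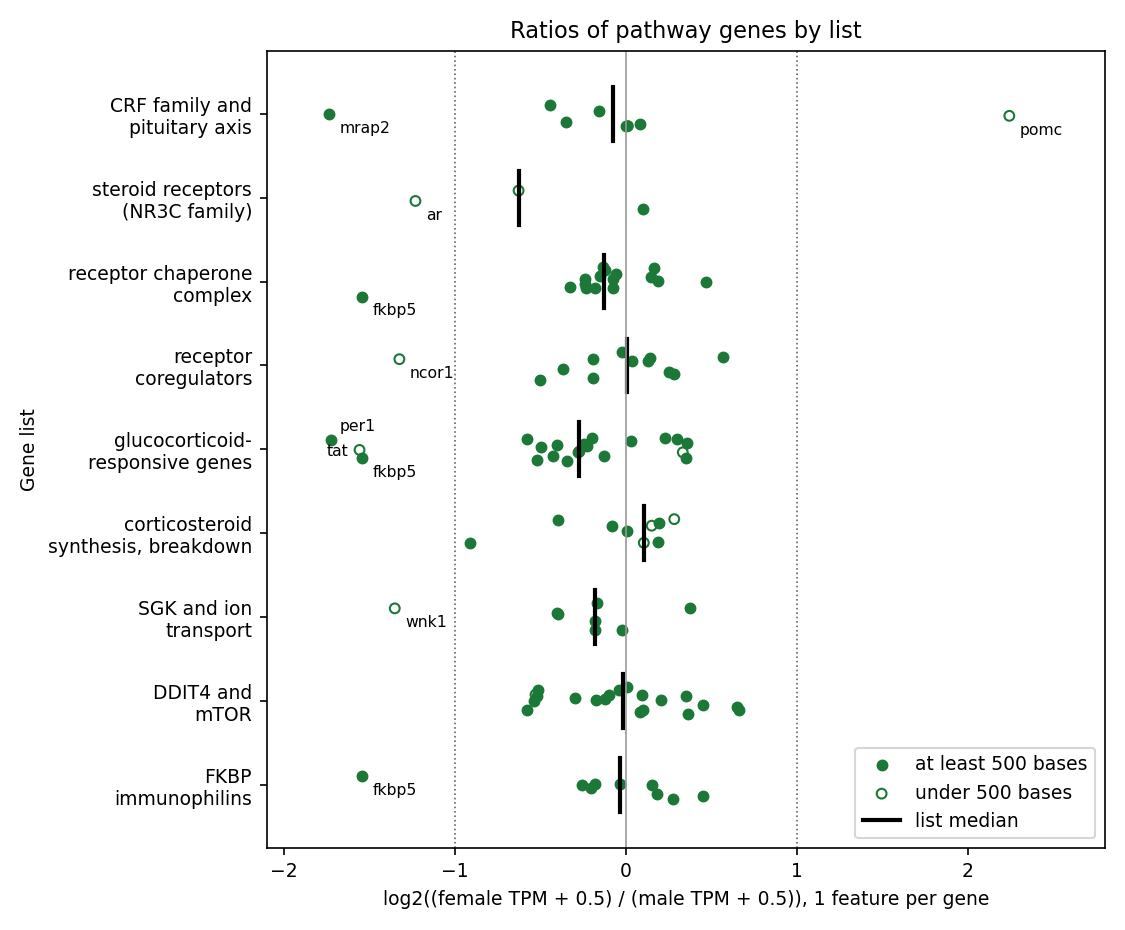
Log2 ratio of female over male, with 0.5 TPM added to each value, for each measured gene of 9 pathway lists, with filled points for features of at least 500 bases, open points for shorter ones, a bar at each list median and dotted lines at 2-fold. Most genes lie within 2-fold, and mrap2, fkbp5 and per1 are the filled points beyond it.

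Receptor coregulators, 12 measured of 14, had 6 ratios above and 6 below 0. The corepressor gene ncor1 was at least 2-fold lower in the female library, at 2.86 TPM in the female and 7.91 TPM in the male library on 12 and 37 reads of a feature of 373 bases. The coactivator genes ncoa3 and ncoa2 had log2 ratios of −0.50 and 0.57. Highest in level was smarca4, which encodes a chromatin remodeller. Its feature of highest mean level measured 44.3 TPM in the female and 40.4 TPM in the male library. Its other 6 features were all lower in the female library, and the 7 summed to 182 TPM in the female and 236 TPM in the male library.

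Genes of corticosteroid synthesis and breakdown had 9 of 24 measured, and all 9 lay within 2-fold, as did 34115 of all 40209 features. The side chain cleavage, 11-beta-hydroxylase and 21-hydroxylase genes of cortisol synthesis (cyp11a1, cyp11b1, cyp21a2) and the cholesterol transporter gene star had no feature with a matching symbol. The largest ratio was that of srd5a1, a steroid 5-alpha reductase gene, at 5.01 TPM in the female and 9.85 TPM in the male library. The P450 reductase gene por, the most abundant by the mean of both libraries, measured 12.4 TPM in the female and 16.5 TPM in the male library, a log2 ratio of −0.39, and in the female library hsd11b2 was higher at 12.9 TPM.

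The list of the sgk1 kinase family and of ion transport, which holds sgk1 itself, had 8 of 14 genes measured. Of these, 7 had a ratio below 0, with a median of −0.18. Beside them, 56.2% of all features lay below 0, with a median of −0.07, and the count is not read as a shift of this list. Of the kinase gene wnk1, a feature of 208 bases was at least 2-fold lower, at 11.8 TPM in the female and 30.9 TPM in the male library on 10 and 29 reads. The long wnk1 feature, of 7920 bases, was near equal at 17.1 TPM in the female and 16.5 TPM in the male library, and the 4 wnk1 features summed to 45.0 TPM in the female and 56.6 TPM in the male library, less than 2-fold apart. That sum holds a feature of 457 bases, at 3.16 TPM in the female and 7.11 TPM in the male library. It also holds a feature of 209 bases, at 12.9 TPM in the female and 2.12 TPM in the male library. The protein match of the latter is named WNK4, so it may not belong to wnk1. The chloride cotransporter gene slc12a2 measured 41.9 TPM in the female and 32.2 TPM in the male library.

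The list of ddit4 and the mTOR arm, which holds ddit4 itself, had 20 of 22 genes measured. Of these, 10 were above and 10 below 0, and all lay within 2-fold, as did 34115 of all 40209 features. The kinase gene mtor itself measured 8.57 TPM in the female and 8.81 TPM in the male library. The most abundant was atf4, a stress-responsive transcription factor gene, at 82.3 TPM in the female and 89.6 TPM in the male library, with a second feature, of 2132 bases, at 81.3 TPM in the female and 72.6 TPM in the male library. The related inhibitor gene ddit4l measured 15.2 TPM in the female and 9.42 TPM in the male library, a log2 ratio of 0.66, and a second ddit4l feature had a log2 ratio of −0.13. A subunit gene of the complex that restrains mTORC1, tbc1d7, measured 8.5 TPM in the female and 5.24 TPM in the male library, a log2 ratio of 0.65. The gene rheb, which encodes the activator of mTORC1, had 4 features. That of highest mean level measured 58.1 TPM in the female and 84.5 TPM in the male library, a log2 ratio of −0.54, and the other 3 were near equal, with log2 ratios of −0.02, −0.07 and 0.12. The protein matches of these 3 are an uncharacterized protein, RhebL1 and a hypothetical protein, in that order, so they may not belong to rheb.

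The steroid receptors closest to nr3c1 in sequence form the NR3C family, in which 3 of 4 genes were measured. The androgen receptor gene ar passed 2-fold on a feature of 214 bases, at 10.2 TPM in the female and 24.5 TPM in the male library. The median of these 3 genes is not read here, since it was −0.63 with the most abundant feature per gene and 0.12 over features of at least 500 bases.

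The tissue label was checked with marker genes. Of 15 brain markers 13 were measured, led by the synaptic gene snap25 at 2642 TPM in the female and 2201 TPM in the male library, and 12 lay within 2-fold. The exception was the neuronal gene elavl3, at 25.9 TPM in the female and 52.7 TPM in the male library, and the radial glia gene fabp7 had the next largest ratio, at 2443 TPM in the female and 1652 TPM in the male library, with a second feature, of 614 bases, at 366.5 TPM in the female and 408 TPM in the male library. Of 10 pituitary markers 1 was matched, pomc, and the growth hormone, prolactin and gonadotropin genes had no matching symbol. Blood markers differed between the libraries, with 4 of 7 measured and 3 of these above 0. The globin genes hbaa and hbab measured 644 and 563 TPM in the female and 305 and 230 TPM in the male library, and the 4 measured markers summed to 1233 TPM in the female and 555 TPM in the male library. Of 7 muscle markers 1 was matched, tnnt3, with 3 features that did not move together. They measured 10.1 TPM in the female and 24.7 TPM in the male library over 228 bases, 14.0 TPM in the female and 14.1 TPM in the male library over 523 bases, and 6.27 TPM in the female and 3.87 TPM in the male library over 609 bases. Of 8 interrenal and kidney markers 1 was matched, slc12a1, at 11.8 TPM in the female and 11.6 TPM in the male library. The part of blood content in the fkbp5, pomc and mrap2 differences was not tested.

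Genes whose values lay nearest to a member were sought among the 8291 features with a symbol and at least 1000 bases, by distance on the plane of the 2 log2 levels. Nearest to fkbp5 were Acy1a, SLC4A7, mid1ip1l, ELAVL3 and B3GALT6, at distances of 0.42 to 0.52 log2 units, and of these mid1ip1l measured 34.5 TPM in the female and 79.2 TPM in the male library. Nearest to ddit4 of 1518 bases were PFKFB2, SH3PXD2B, Cd53, HNRNPLL and TSPAN3, at distances of 0.04 to 0.06. Nearest to crh were KDM1B, tax1bp1a, WDFY3, ETFB and LMBR1, at 0.01 to 0.02. Within 0.1 log2 units lay 0 such features for fkbp5, 9 for ddit4 and at least 105 for crh. The 5 named for crh therefore stand among many at nearly the same values. The distance rests on 2 values per gene, 1 from each library.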

How the data were processed

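RNA from 1 female and 1 male brain was sequenced in paired ends after poly(A) selection (RIN above 7.0, 5 µg, unstranded kit, inserts of about 300 bp within 50 bp), per the labels' protocols. Software listed in the submitters' processing notes, with no version or role, was Salmon, edgeR, FastQC and cutadapt. The deposited values were taken as TPM here, from the column sums and from Salmon being listed: the table names no unit, and each column sums to 943014 (female) or 937828 (male). Identifiers have the form of Trinity clusters and no genome is named. TPM fixes the total, so a few abundant features lower all others.

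Columns were matched to libraries by title and grouped by gender label. Ratios are log2((female TPM + 0.5) / (male TPM + 0.5)), and this scale understates low features. Folds are ratios of TPM without that addition. A feature counted as apart at 2-fold, where its higher value reached 1 TPM. TPM holds no depth, but at one length values are whole multiples of the worth of 1 read. This step was searched at lengths of 201 to 420 bases. Among values under 30 reads, 95.2% (female library) and 95.5% (male library) lay within 0.1 of a whole number. By chance, 20% would for a step not fitted to the values. The steps were fitted to these same values, so the high share is not a separate check of them. Beyond, reads per TPM were extended by a straight line from 380 bases on, which counts slightly too few and assumes 1 transcript per feature. This puts about 23600000 reads on the female side and 25800000 on the male side. Exact 95% intervals cover counting error only and duplicate reads, if any, would widen them.

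The members, the 14 gene lists and the rules were chosen with earlier results of these data known. Genes were matched by symbol, with or without a final a or b, and 119 of 195 were found; a gene whose features carry another symbol counts as not measured. Excluded on names alone were crha, crhb, hba and sl. All 17 features were named. Of each list, markers included, the 2 largest ratios and the most abundant gene were named, and others for their role, except 1 gene that is not reported here. The 5 nearest features were taken for fkbp5, ddit4 and crh. The software was SciPy 1.17.1, pandas 2.3.3, Matplotlib 3.10.9 and NumPy 2.4.6 under Python 3.11.15, and procedures were tested on simulated data.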

Additional observations from a re-analysis of the deposited data

How the results depend on the processing

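At 2-fold, 1 of the 17 features was lower and 0 were higher in the female library. The same held with pseudocounts of 0.1 and 1 TPM, with no minimum or one of 10 TPM, after centring and among features of at least 500 bases. It also held without the 2 features whose match names another gene (an alternative chosen after seeing the data). Dropping the minimum of 1 TPM could change nothing, since no listed feature has a higher value under 6.01 TPM. Pseudocounts and centring shift the ratios little, fkbp5 from −1.54 to −1.49 after centring, so they could hardly change this count. At 1.5-fold, 3 were lower and 1 was higher, and 32.4% of all features passed that size. The 1 higher was the short fkbp5 feature, listed only through its female value. Restricting to at least 500 bases left 127 features of the table higher and 325 lower in the female library, and left 0 in place of 1 pathway list entries higher and 5 in place of 9 lower by 2-fold, where fkbp5 counts in 3 lists, since pomc, ar, ncor1, tat and wnk1 rest on shorter features. Of 64 member ratios under alternatives, 57 stayed inside the counting interval and 7, all from summing the features of a gene, left it. Most of the 64 came from pseudocounts and centring, which could hardly move a ratio out of its interval. The 57 are therefore not read as a sign that the ratios are stable. With summing, nr3c1 had a log2 ratio of −0.31, against 0.13 for its longer feature. No paired analysis was possible because each sex has 1 library. With 1 fish per sex, the spread between fish was not measured, and at low read numbers counting error is wide, as for features under 500 bases.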

Other observations

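Other features that name glucocorticoid action lay outside the selection and were mostly near equal. A feature of glucocorticoid-induced transcript 1 (Glcci1), of 3905 bases, measured 11.02 TPM in the female and 10.9 TPM in the male library. The DNA-binding modulator gene Gmeb2 measured 17.95 TPM in the female and 19.1 TPM in the male library. A feature of 218 bases matched to glucocorticoid modulatory element-binding protein 1 measured 10.97 TPM in the female and 24.8 TPM in the male library on 10 and 25 reads, while another feature of that protein, Gmeb1 of 272 bases, measured 11.04 TPM in the female and 6.43 TPM in the male library on 17 and 11 reads. A urocortin feature of 1469 bases, without a symbol, measured 5.59 TPM in the female and 8.22 TPM in the male library. With a female value under 6.01 TPM it is listed only through its male value, so its direction is not support for that of ucn3.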
